A study of Drosophila melanogaster with 4 samples.

Results

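Of 5209 genes on the array that are named only by a CG number, 80 had a signal at least 2-fold higher on both arrays of Yorkie-overexpressing eye discs than on both arrays of control discs. A CG number is the label the Drosophila genome project gave to a predicted gene, and it stays in use where no one has named the gene for a phenotype or product. The 80 were chosen on these values: the lower Yki array had to lie at least 1 above the higher control array on the log2(intensity + 16) scale, and the mean Yki intensity had to be 100 or more. A further 8 genes met both limits but were left out by name, as part of 16 listed genes of a retinin-like cluster and of the short-chain dehydrogenases around CG9150. The difference between Yki and control discs is therefore what defines these genes, and it is given below as a description. Counts of these genes passing a model are printed beside the share of all genes that passed, and support nothing.

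RNA came from pupal eye discs of Drosophila melanogaster, taken at about 40 h after puparium formation, with rearing at 29 °C. The Yki discs came from GMR Gal4 crossed to UAS Yki, and the control discs from GMR Gal4, so that all 4 samples carried the driver. Each group had 2 arrays, labelled as biological replicates 1 and 2, with no statement of how many animals each sample pooled. GMR is an eye enhancer, so Gal4 and the transgene are expected in the differentiating cells of the eye and not in every cell of the disc.

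Yki is the transcriptional coactivator at the end of the Hippo pathway, a kinase cascade that limits organ size by keeping Yki out of the nucleus. In the nucleus it acts with DNA-binding partners such as Scalloped on genes of growth and survival. At this pupal age the eye has stopped most of its cell divisions, and its photoreceptors, cone cells and pigment cells are differentiating. Genes with no more than a CG number are often enzymes, transporters or secreted proteins that were recognised from their sequence alone, so a family can be stated for some of them but rarely a role in the eye.

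yki itself had intensities of 26417 and 26183 on the Yki arrays, against 1285 and 1261 on the control arrays, which fits the labels. The log2 difference was 4.35 (SE 0.22, limma adjusted p 0.0251 over 11982 genes). The highest intensity of any probe set on the Yki arrays was 26641 and 27246, so yki lay near the top of the range. Whether its signal was compressed there was not tested. Deposited intensities had a common trimmed mean, and the log2 values of replicate arrays correlated at 0.973 in Yki discs and 0.975 in control discs. Across all genes 12 (0.1%) passed an adjusted p of 0.05 in limma, 2 higher (0.0167%) and 10 lower (0.0835%) with Yki (388 higher and 408 lower with array medians subtracted, 6 higher and 14 lower after quantile normalisation). With 2 arrays in each group an exact permutation test cannot give a two-sided p below 0.333, and the number of arrays limits the precision of every value.

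The 80 genes ranged widely in signal, although the rule barred any gene with a Yki mean under 100. That limit lay near the median intensity of the Yki arrays (81.1 and 100.7), so the dimmer probe sets were left out by choice. Their mean intensity in Yki discs ran from 112 to 19339 with a median of 1043, against 7.46 to 4408 with a median of 204 in control discs. The log2 difference ran from 1.26 to 4.02 with a median of 1.98, where all 11982 genes had a median of -0.012. In control discs 54 of the 80 already had a mean of 100 or more and 11 a mean of 1000 or more, while 3 (CG12971, CG42827 and CG13282) had a mean under 16. For these 3 the size of the log2 difference depends strongly on the added 16, and the files hold no detection calls to say whether their control signal was above background. By the size of the difference, 10 genes lay at 3 or more, 28 between 2 and 3, and 42 under 2.

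The limits of the rule were met by 1.69% of all CG-numbered genes, 1.48% of genes with other symbols and 1.57% of all genes. Turned round, they were met by 98 CG-numbered genes that were lower in Yki discs, or 1.88%, and by 2.39% of genes with other symbols. Without requiring a size, both Yki arrays lay above both control arrays for 22.5% of all genes and below both for 25.2%. None of the 80 passed the adjusted p of 0.05 in limma, and all 80 had an unadjusted p under 0.05, where 0.0167% of all genes were called higher and 7.19% had an unadjusted p under 0.05 and a higher mean in Yki discs. The genes were chosen on this contrast, so nothing is read from these counts, which also changed with the processing (given below).

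**Figure D1:**
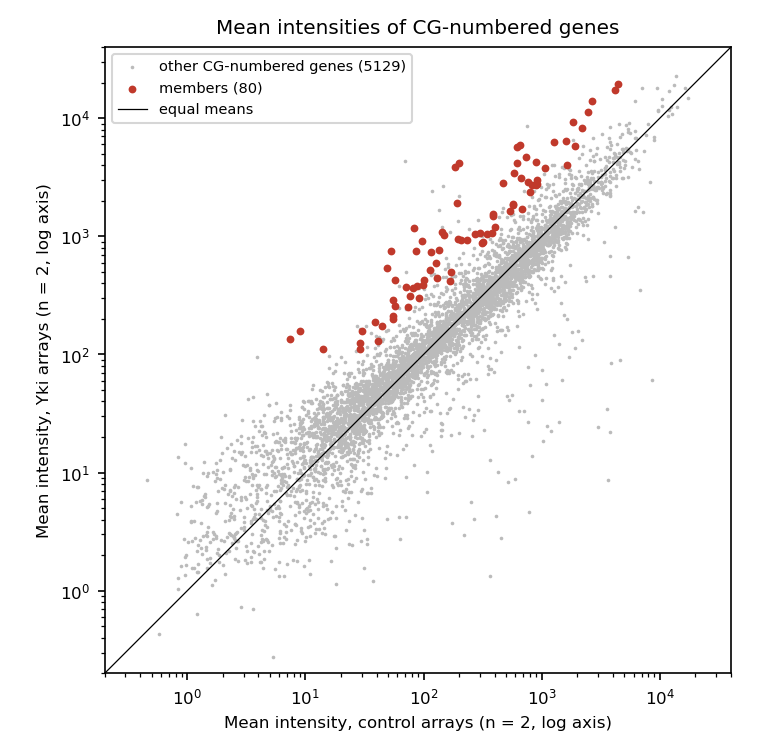
Mean deposited intensity of each CG-numbered gene on the 2 Yki arrays (vertical, log axis) against the 2 control arrays (horizontal, log axis), with the 80 genes in red and the others in grey. The 80 lie above the line of equal means by choice, from a Yki mean of 112 to one of 19339.

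The widest separation was that of CG4842, a member of the short-chain dehydrogenase family, whose enzymes oxidise or reduce alcohols and ketones with NAD(P). CG4842 had 1733 and 5934 in Yki discs, against 168 and 199.7 in control discs, with means of 3834 ± 2971 and 184 ± 22.3 (SD, n = 2 each). Its log2 difference of 4.02 was also the highest of the 80. The Yki arrays differed from each other by 1.77 on the log2 scale, and still the lower of them stood far above both control arrays. CG9192 had 5122 and 6749 in Yki discs, against 598 and 723 in control discs, a log2 difference of 3.13. CG1136 had 1299 and 2564 in Yki discs, against 196 and 185 in control discs (3.16). These 2 genes combined close control arrays with a high Yki signal, and no family is stated for them here.

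CG8745, of the aminotransferase family, had the closest Yki arrays of the strongly separated genes. Its intensities were 429 and 432 in Yki discs, against 50.3 and 65.3 in control discs, and the log2 difference was 2.60. CG32365 was also even, with 509 and 536 in Yki discs against 102 and 124 in control discs (2.07). CG13720 was uneven in the control group instead: it had 1511 and 824 in Yki discs, against 149 and 16.4 in control discs. Its log2 difference of 3.95 was 5.13 without control replicate 1 and 2.78 without control replicate 2.

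CG4757 encodes a protein of the carboxylesterase family, enzymes that cleave ester bonds. It had 1332 and 846 in Yki discs, against 124 and 164 in control discs (log2 difference 2.76). CG6870, of the cytochrome b5 family of electron carriers, had 1045 and 7302 in Yki discs, against 219.8 and 179.6 in control discs (3.70). Among the 80, CG6870 had the widest spread between Yki arrays, 2.79 on the log2 scale. CG31103, of the major facilitator family of membrane transporters, had 409.6 and 1081 in Yki discs, against 19.04 and 86.9 in control discs (3.51). Here both groups were higher on their replicate 2 array. The difference was 3.60 between arrays numbered 1 and 3.41 between arrays numbered 2, though equal numbers are not known to be pairs.

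CG5653 stood out among the widest separations for its brightness, with 11602 and 16471 in Yki discs, against 2626 and 2740.2 in control discs (log2 difference 2.36). CG15021 had 3727 and 4683 in Yki discs, against 331 and 903 in control discs (2.89). Its groups stayed far apart although the control arrays differed from each other. CG5172 had 317 and 759.9 in Yki discs, against 30.4 and 67.0 in control discs (3.03). CG8568 had 618 and 1207 in Yki discs, against 40.2 and 153 in control discs (3.18). Both of these were dim in control discs and higher on replicate 2 than on replicate 1 in each group. CG12971 was the dimmest of the 15 widest separations, with 81.7 and 236 in Yki discs, against 12.1 and 5.96 in control discs (2.66), and its difference was 1.52 with a pseudocount of 64 and 3.87 with one of 1.

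**Figure D2:**
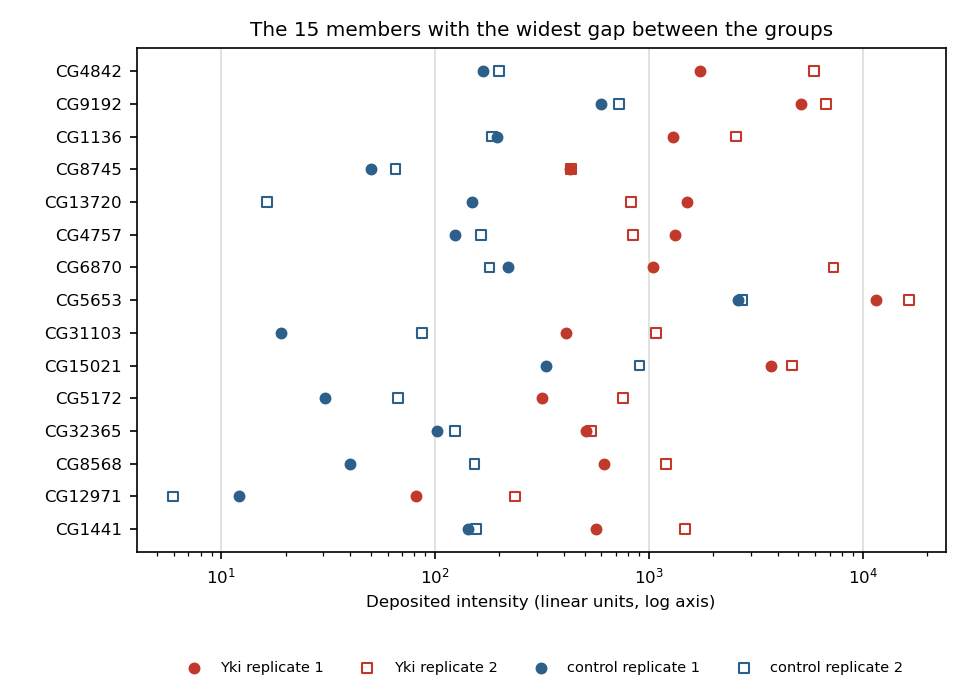
Deposited intensity (log axis) on each of the 4 arrays for the 15 genes with the widest gap between the lower Yki array and the higher control array, widest at the top. Red marks are Yki arrays, blue marks are control arrays, filled circles are replicate 1 and open squares replicate 2. CG4842 has the widest gap, CG8745 the closest Yki arrays and CG6870 the most distant ones.

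The brightest genes were already strong in control discs. CG4962 had 17216 and 21463 in Yki discs, against 3324 and 5491 in control discs (log2 difference 2.17), and CG8736 had 16454 and 18181 in Yki discs, against 2372 and 5959 in control discs (2.20). The highest intensity of any probe set was 26641 and 27246 on the Yki arrays, against 26344 and 21754 on the control arrays, each array taken by itself. CG14636 had 6388 and 10234 in Yki discs, against 2477 and 1876 in control discs (1.90). CG42367 had 5617 and 13069 in Yki discs, against 2430.1 and 1226 in control discs (2.30). In CG42367 the replicates ran in opposite order in the groups. Its difference was thus 1.20 between arrays numbered 1 and 3.40 between arrays numbered 2, which are not known to be pairs.

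Protein families known from sequence were stated for 30 of the 80 genes, in 8 groups of roles, as general background. No search of sequences was made, so others of the 80 may belong to the same families. The gene tables used here give only names. They carry a matching synonym for CG10527 (FAMeT), the serine protease names of CG8172, CG7432 and CG14892, CG32085 (FBXL16) and CG34057 (dC1GalT6). The groups were put together after the 80 were known, so their sizes say nothing about which kinds of protein were more frequent.

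A group of 4 genes belongs to families of oxidoreductases, and 2 of them had much larger differences than the others. Beside CG4842 and CG6870, the short-chain dehydrogenase family gene CG7322 had 4024 and 3993 in Yki discs, against 1336 and 1953 in control discs (log2 difference 1.30). CG13077, of the cytochrome b561 family of membrane electron carriers, had 1039 and 738 in Yki discs, against 292 and 349 in control discs (1.41).

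A group of 5 genes belongs to families that work on lipids and esters. CG1441 and CG30427 are of the fatty acyl-CoA reductase family, which makes the fatty alcohols used in waxes and surface lipids. CG1441 had 568 and 1471 in Yki discs, against 142 and 156 in control discs (log2 difference 2.50). CG30427 had 1925 and 3531 in Yki discs, against 941 and 847 in control discs (1.53). Both genes were higher on Yki replicate 2 and even in control discs. CG10527, whose synonym FAMeT stands for farnesoic acid O-methyltransferase, an enzyme named for a step in juvenile hormone synthesis, had 4390 and 8334 in Yki discs, against 1732 and 1492 in control discs (1.90). The lipase family gene CG13282 was the dimmest of the 80 by its Yki mean, with 65.2 and 158 in Yki discs, against 14.7 and 13.7 in control discs (1.98).

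Among the genes with a stated family, 2 bright ones were of families of lipid carriers. CG14259 is of the takeout family, secreted proteins related to juvenile hormone binding proteins. It had 3636 and 7704 in Yki discs, against 134.5 and 1102 in control discs, the widest spread between control arrays among the 80 (2.89 on the log2 scale). Its log2 difference of 3.69 was 4.601 between arrays numbered 1 and 2.79 between arrays numbered 2, which are not known to be pairs. CG2663 is of the CRAL-TRIO family, which binds small lipophilic molecules such as retinoids and tocopherol. It had 8173 and 14553 in Yki discs, against 3427 and 1504 in control discs (2.26).

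Besides CG31103, 3 membrane transporters of the organic cation transporter family were among the 80. CG8925 had 254 and 491 in Yki discs, against 56.9 and 84.3 in control discs (log2 difference 2.11). CG6126 had 2460 and 5111 in Yki discs, against 1181 and 963 in control discs (1.72). CG14856 had 139.7 and 120.1 in Yki discs, against 41.8 and 40.1 in control discs (1.35). The 3 differed widely in signal, but probe sets of different genes cannot be set against each other as RNA levels.

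Serine proteases and their inhibitors made a group of 5. CG8172 and CG7432, whose synonyms SP32 and SP19 are serine protease names, had 876 and 1238 (CG8172) and 912 and 1165 (CG7432) in Yki discs. In control discs CG8172 had 392.4 and 211, and CG7432 had 413 and 130.2. CG14892, with the synonym SP175, had 438 and 449 in Yki discs, against 205 and 55.8 in control discs. In all 3 the control signal was higher on replicate 1, and the log2 differences were 1.80, 2.06 and 1.87. The Kunitz family inhibitors, small proteins that block serine proteases, were CG10031 and CG42827. CG10031 had 122 and 193 in Yki discs, against 28.3 and 32.4 in control discs (1.87), and CG42827 had 43.9 and 228 in Yki discs, against 9.16 and 5.76 in control discs (2.37).

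Enzymes of nucleoside, amino acid and phosphate metabolism made another group of 5. CG6330 and CG17224 are of the uridine phosphorylase family, which splits uridine into uracil and a sugar phosphate. CG6330 had 1583 and 1836 in Yki discs, against 719.9 and 655 in control discs (log2 difference 1.29), and CG17224 had 2121 and 3271 in Yki discs, against 1018 and 634 in control discs (1.69). CG4829, of the gamma-glutamyltransferase family that cleaves glutathione, had 430.5 and 410.3 in Yki discs, against 144 and 190.5 in control discs, and its difference of 1.26 was the smallest of the 80. CG9451, of the acid phosphatase family, had 371 and 477 in Yki discs, against 72.6 and 128 in control discs (1.95). The difference of CG8745, described above, was the largest of the 5.

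CG10562 and CG7135 are of the ecdysteroid kinase-like family, some of whose insect members phosphorylate the moulting hormone. CG10562 had 93.2 and 157 in Yki discs, against 30.3 and 27.3 in control discs (log2 difference 1.62). CG7135 was far brighter, with 2007 and 3518 in Yki discs, against 955 and 868 in control discs, and had a like difference of 1.53. A further 3 genes belong to families that act on other proteins. CG15528, of the dual-specificity phosphatase family, had 219 and 402 in Yki discs, against 71.5 and 83.2 in control discs (1.75). The galactosyltransferase family gene CG34057 had 303 and 197 in Yki discs, against 58.7 and 88.7 in control discs (1.56).

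**Figure D3:**
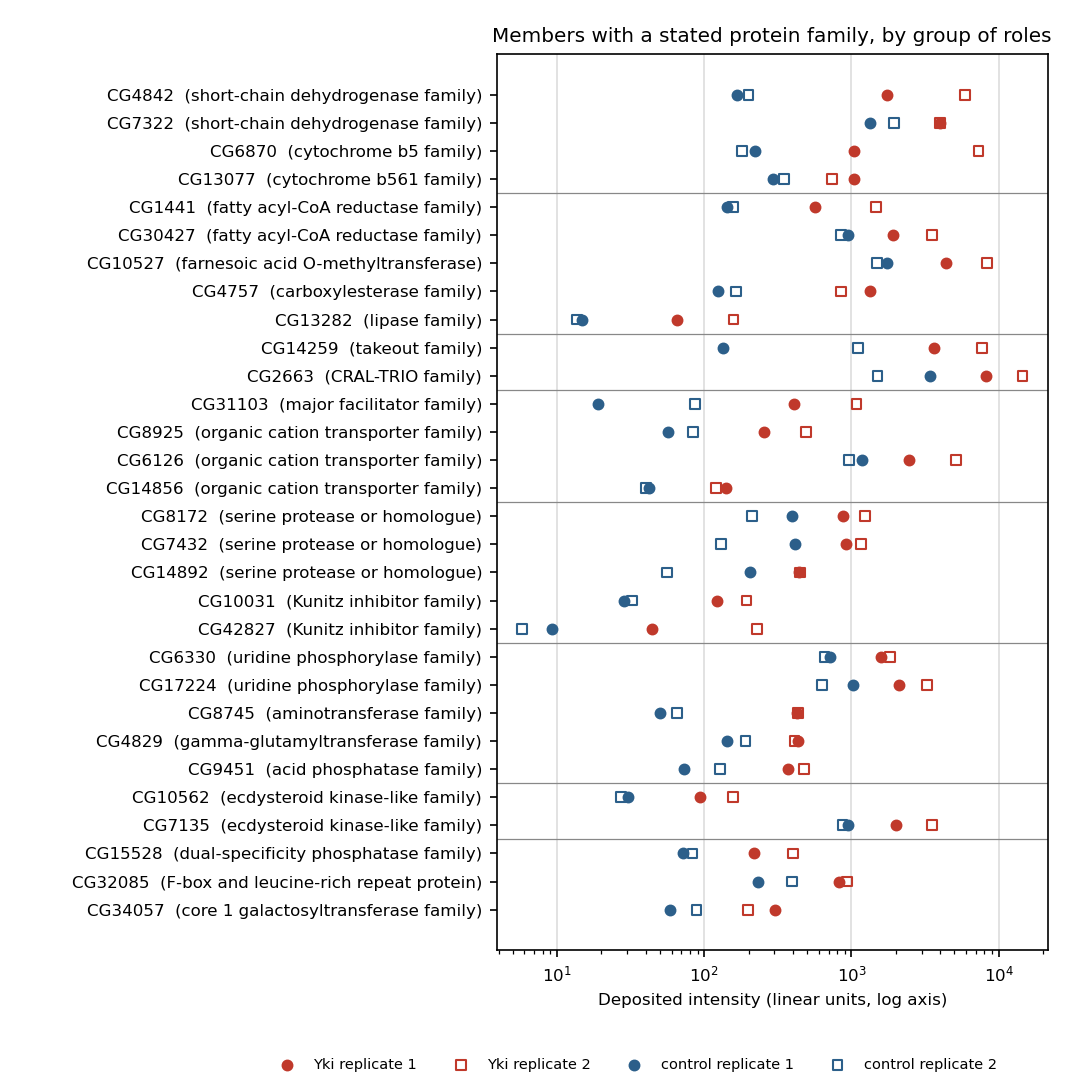
Deposited intensity (log axis) on each of the 4 arrays for the 30 genes with a stated protein family, with lines between the 8 groups of roles. Red marks are Yki arrays, blue marks are control arrays, filled circles are replicate 1 and open squares replicate 2. Log2 differences run from 1.26 (CG4829) to 4.02 (CG4842).

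No family is stated here for the other 50 genes, which had log2 differences from 1.44 to 3.95. Of these, 34 that neither the naming rule nor a family picked out are given here as groups. The 16 with a Yki mean of 1000 or more were CG13022, CG9812, CG7203, CG15080, CG13003, CG14866, CG15211, CG5455, CG12995, CG42238, CG17707, CG15545, CG32816, CG8301, CG32407 and CG13064. Their arrays read 929.9 to 8418 in Yki discs, against 205 to 1954 in control discs, and their differences ran from 1.45 to 3.11. The 7 with a Yki mean between 500 and 1000 were CG13024, CG14301, CG14625, CG13670, CG2121, CG34355 and CG13138, with 339 to 1426 in Yki discs, against 59.5 to 302 in control discs, and differences from 1.84 to 2.74. The 11 with a Yki mean under 500 were CG15203, CG11458, CG7884, CG17298, CG5783, CG12911, CG30076, CG31248, CG2652, CG34265 and CG10257, with 108 to 484 in Yki discs, against 14.3 to 123 in control discs, and differences from 1.51 to 2.07.

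Just inside the 1-unit limit lay CG32085, CG6023 and CG30427, with gaps of 1.01, 1.01 and 1.02 between the lower Yki and the higher control array. CG32085, with the synonym FBXL16 of an F-box protein, had 817 and 933 in Yki discs, against 233 and 396 in control discs. CG6023 had 602 and 393 in Yki discs, against 154 and 186 in control discs. Just outside lay CG7365, CG42598 and CG14147, with gaps of 0.97, 0.96 and 0.95. CG14147 had a larger mean difference (2.43) than most of the 80, with 529.99 and 2150.3 in Yki discs, against 266 and 129 in control discs. CG7365 had a difference of 1.84 and CG42598 of 1.25. In all, 19 of the 80 had a gap under 1.1, and 59 a gap under 1.5.

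The Yki arrays differed from each other in 1 direction for most of the 80 genes, which the rule did not ask for. Yki replicate 2 was above Yki replicate 1 for 63 of 80 genes (78.8%), by a median of 0.61 on the log2 scale. For 22 of the 80 it was at least 1 above, and for 0 was replicate 1 at least 1 above replicate 2. Among 3172 other CG-numbered genes at least as bright as the dimmest of the 80, Yki replicate 2 was above for 51.8%, by a median of 0.030, and was at least 1 above for 362 and at least 1 below for 64. Control replicate 2 was above control replicate 1 for 40 of the 80 (50%), with a median of 0.018, beside 57.3% and a median of 0.072 among the 3172 others. Genes are not independent of each other, and no test was made of these shares.

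The lean was not confined to CG-numbered genes, since Yki replicate 2 was above for 76 of the 100 genes with other symbols that met the same limits. Among the 98 CG-numbered genes that were lower in Yki discs, it was above for 46. Between arrays numbered 1 the median difference of the 80 genes was 1.51, and between arrays numbered 2 it was 2.34. The latter difference was the larger for 57 of the 80. Equal numbers are not known to pair the arrays, so these are not 2 matched experiments, and the values largely restate the lean of the Yki arrays. Every one of the 80 kept a difference of at least 1 within each replicate number, as the rule requires. With Yki replicate 1 left out 221 CG-numbered genes met the limits, and with Yki replicate 2 left out 111 did, against 169 without control replicate 1 and 159 without control replicate 2.

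The strongest lean after that of CG6870 was in CG42827, CG4842, CG13670 and CG2121. CG13670 had 339 and 1179 in Yki discs, against 151 and 122 in control discs. CG2121 had 355 and 1154 in Yki discs, against 59.5 and 113 in control discs. Both had a Yki spread above 1.6 on the log2 scale and smaller spreads in control discs. The control arrays were 1 or more apart for 19 of the 80 (23.8%), of which 8 were higher on control replicate 2 and 11 on control replicate 1. Among the 3172 other CG-numbered genes they were so for 9.30%, with 124 higher on control replicate 2 and 171 on control replicate 1. After CG14259, the widest of these was CG7203, which had 3802 and 5641 in Yki discs, against 210.3 and 1256 in control discs. CG14866 ran the other way in control discs, with 1117 and 226, against an even 3226 and 3012 in Yki discs. Only CG12995, CG14259, CG15080 and CG31103 were 1 or more apart in both groups, and only CG32365, CG14856 and CG6330 were within 0.25 in both. Genes in this paragraph were singled out after their values were seen.

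**Figure D4:**
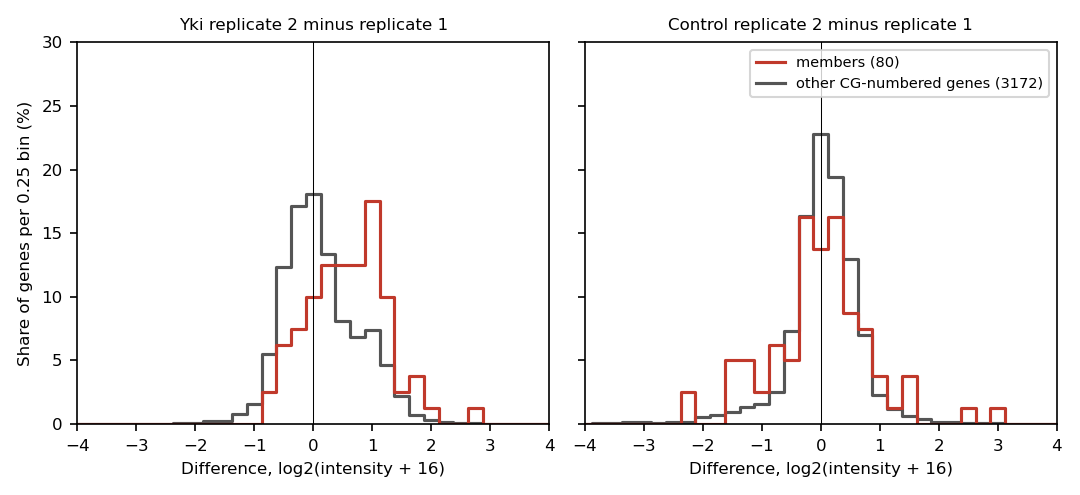
Difference between replicate 2 and replicate 1 on the log2(intensity + 16) scale for Yki arrays (left) and control arrays (right), as the share of genes in bins 0.25 wide, for the 80 genes (red) and 3172 other CG-numbered genes at least as bright as the dimmest of them (grey). Between Yki arrays the 80 are shifted to the right, with a median of 0.61 against 0.030, and between control arrays they are spread to both sides. The axis ends at 4 units, beyond which 13 of the other genes lie on the control side.

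Markers of other cells and tissues were read beside the 80 genes, and no marker on these lists was called in limma. A marker counted as measured where its symbol matched a gene with a single platform symbol. Muscle markers summed to 30814 and 50784 in Yki discs, against 10711 and 18562 in control discs, over 12 measured of 17 listed genes, and their median log2 difference was 1.501, with both Yki arrays above both control arrays for 11 of 12, beside 22.5% of all genes. This sum, too, was higher on replicate 2 than on replicate 1 of the Yki discs. Photoreceptor markers (10 measured) summed to 37386 and 50155 in Yki discs, against 18197 and 21138 in control discs, with a median of 1.44 and both Yki arrays above both control arrays for 7 of 10. Pdh alone gave 20070 and 25450 of these sums in Yki discs, against 7797 and 6693 in control discs, while elav (log2 difference 0.19), gl (-0.25) and Arr1 (0.12) lay near 0. Salivary gland markers (7 measured of 8) summed to 2034 and 501 in Yki discs, against 25483 and 21197 in control discs, with a median of -4.64. The lower values were those of the 6 Sgs genes. fkh, the other one measured, had 287 and 110 in Yki discs, against 143 and 183 in control discs (log2 difference 0.14). The 6 neuroblast and optic lobe markers summed to 567 and 427 in Yki discs, against 1582 and 1544 in control discs, with a median of -1.73. Medians were nearer 0 for cone and pigment cells (8 genes, 0.086), haemocytes (8, -0.11), glia (7, 0.0092), trachea (5, -0.15) and fat body (6, -0.29). Some of these medians join markers that moved in opposite directions. Both Yki arrays lay above both control arrays for 3 cone and pigment cell markers and below both for 3. These counts were 2 and 2 for haemocytes, 2 and 1 for glia, 0 and 0 for trachea and 0 and 2 for fat body. Over all genes the shares were 22.5% above and 25.2% below. Of all these markers 0 lay under an intensity of 16 on all arrays. Their part in the levels of the 80 genes was not tested, and in whole discs a change in the number of cells of a type and a change in RNA per cell cannot be told apart.

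A list of 24 symbols was drawn up as known targets of Yki and Hippo signalling. It also held pathway genes such as wts, Mer and ds, so it is not a plain list of targets. Of the 24 symbols, 14 matched a gene with a single platform symbol, and none of the 14 was called in limma. Among the 14, 1 had an unadjusted limma p under 0.05 upwards and 3 downwards, where 7.19% of all genes did upwards and 8.07% downwards. Their median log2 difference was -0.21, beside -0.012 for all genes. Both Yki arrays lay above both control arrays for 2 of the 14 and below both for 7, beside 22.5% and 25.2% of all genes. Diap1 and th, which are symbols of the same gene, bantam and Myc were among the listed symbols without such a match. A missing match does not show that the array has no probe set for the gene. kibra, an upstream activator of Hippo signalling that Yki itself induces, had 306 and 226 in Yki discs, against 104 and 159 in control discs (log2 difference 0.95, limma adjusted p 0.268). CycE, the S phase cyclin, had 307 and 325 in Yki discs, against 423 and 884 in control discs (log2 difference -0.92, limma adjusted p 0.361). For ex the values were 281.8 and 302.7 in Yki discs, against 359.7 and 360.5 in control discs (-0.29, limma adjusted p 0.599). For fj they were 634.7 and 691.8 in Yki discs, against 1111 and 1066 in control discs (-0.70, limma adjusted p 0.259). The largest difference of the 14 was that of CycB, with 496 and 470 in Yki discs, against 1372 and 1272 in control discs (-1.42, limma adjusted p 0.110).

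The positions of the 80 genes were compared after the listed genes had been left out, which removed a run of neighbouring CG numbers, so the count of neighbours is partly set by the choice. CG4962 lies 2 places from CG13044, which was on the list of genes left out. CG13044 was lower in Yki discs (log2 difference -1.14) and did not meet the rule, so leaving it out removed no neighbour of CG4962. In the gene order of the RefSeq table (Release 6 plus ISO1 MT) no member had another with at most 2 annotated genes between them (0 groups). The nearest measured genes on each side, within 5 places, came to 157 different genes, none of them among the 80. Of these 157, 4 met the limits of the rule, or 2.55% beside 1.57% of all genes. Turned round, the limits were met by 3, beside 1.88% of all CG-numbered genes and 2.39% of genes with other symbols. Both Yki arrays lay above both control arrays for 53 of the 157 (33.8%), beside 22.5% of all genes. The median log2 difference of the 157 was 0.15, beside -0.012 for all genes. These shares were not tested. The 4 that met the rule were Scp2 next to CG14892, plum next to CG5455, ort next to CG7432, and y, 3 places from CG32816. ort, the histamine receptor channel of cells that receive photoreceptor input, had 107 and 117 in Yki discs, against 38.2 and 32.5 in control discs (log2 difference 1.32). y, the yellow pigmentation gene, had 463 and 1052 in Yki discs, against 219 and 132 in control discs (1.94).

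Probe design bears on what a signal can be credited to. Of the 80 genes, 67 were read by a probe set made for a single transcript, 7 by one for several transcripts of a gene (suffix a_at) and 6 by one that can also match other genes (suffix s_at). CG1441, CG32816, CG5455, CG44085, CG17224 and CG4829 are in the last set, so their signal may hold RNA of related genes. Of the 80, 6 had further probe sets with the same single symbol, 7 in all, and each of these had a higher mean in Yki discs. For CG30427 they read 1201 and 3514 in Yki discs against 436 and 408 in control discs (log2 difference 2.24), and 425 and 838 in Yki discs against 327 and 150.1 in control discs (1.36). The further probe set of CG33978 had a difference of 0.74, beside 1.58 for the brighter one. Those of CG42367 and CG44085 were dim, at 29.1 to 56.9 and 20.7 to 34.6 over the 4 arrays, with differences of 0.28 and 0.32. For that of CG42367 the groups overlapped, with 35.14 and 56.9 in Yki discs against 39.98 and 29.1 in control discs. These probe sets share the arrays with the rule, so they describe the signal and add no independent sample.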

How the data were processed

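Each of the 4 RNA samples was read on its own Affymetrix Drosophila Genome 2 array, per the labels' protocols. The authors deposited linear intensity values for 18952 probe sets on 4 arrays, made with Affymetrix Expression Console per the submitters' processing notes. The series' design text also names the Affymetrix operating software and dChip. No source used here names the summarisation method or gives detection calls. The mean after trimming 2% at each end was 500.01 on each array. No column was left unused (0).

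The 183 control probe sets were removed, and limma 3.58.1 in R 4.3.3 was fitted on log2(intensity + 16) of 18769 probe sets with group as the only term. Benjamini-Hochberg adjustment ran over 11982 genes, each represented by its brightest probe set with 1 platform symbol. All 80 chosen genes matched the RefSeq table by gene identifier, with the same symbol. The limma fit alone was also run on simulated data with independent normal values for each probe set. Such data cannot speak to how the calls depend on the processing.

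The members, the marker lists and the list of Yki and Hippo genes were chosen with earlier results of these data known. Genes were named by a rule: the 15 widest gaps, the 6 brightest, up to 4 with other probe sets, up to 10 with a known family by gap, and 3 on each side of the limit. Further genes with a stated family, the genes of the replicate comparison, the flanking genes, kibra, CycE, ex, fj and CycB were named after their values were seen. Planned protein and promoter features were not computed, since no sequences were used here.

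Replicates were numbered as in the sample titles, and nothing ties equal numbers to a common day or dissection. Deviations from group means of same-numbered arrays correlated at 0.039, so the numbers were not taken as pairs. Alternatives were the pseudocount, the scaling, the filter on dim genes, the moderation, the replicate block, the choice of probe set, the limits of the rule and leaving out each array.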

Additional observations from a re-analysis of the deposited data

How the results depend on the processing

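Subtracting array medians moved the calls most, and the moderation then used 1 SD (0.42) for every probe set: 796 genes passed, 79 of the 80 among them, against 12 and 0. Over all genes the count was 0 with a pseudocount of 1, 2 with one of 64, 20 after quantile normalisation, 65 with the replicate block, 58 with trended and robust moderation and 60 without dim genes. Of the 80, 2 passed after quantile normalisation, 7 with the replicate block, 5 with trended and robust moderation, 6 without dim genes and 1 with all probe sets of a gene averaged. The cause was not tested. With any single array left out 0 genes and 0 of the 80 passed. The replicate block is a hint only, since the numbers are not known to pair the samples.

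The limits were met by 51 CG-numbered genes with a pseudocount of 64, 21 with a gap of 1.5 (median log2 difference 2.89), 129 with a gap of 0.75, and 111 to 221 with an array left out. With array medians subtracted 80 met them, of which 69 were among the original 80. The median difference of the 80 stayed between 1.65 and 2.24 under the other pseudocounts, scalings, probe set choice and arrays left out. The difference of yki was 4.37 with a pseudocount of 1 and 4.34 to 4.37 with an array left out, no longer past the threshold. Single genes with uneven replicates moved most when an array was left out: CG14259 had 2.25 without control replicate 1 and 5.14 without control replicate 2, and CG6870 had 5.09 without Yki replicate 1 and 2.31 without Yki replicate 2. The choice of genes fixes their direction in such fits, and the replicate block does not alter a difference. With 2 arrays a group, no estimate of the error is firm.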

Other observations

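Another 7 CG-numbered genes had the same separation between groups but a mean Yki intensity under 100. Among them CG5909, chosen after its values were seen, had 90.9 and 98.4 in Yki discs, against 4.09 and 3.76 in control discs. CG13155, likewise chosen, had 81.1 and 85.6 in Yki discs, against 30.4 and 30.3 in control discs.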
